A study of Homo sapiens with 12 samples.

Results

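The genes described here are the long intergenic non-coding RNAs whose symbol is LINC followed by digits, in RD cells that had received an siRNA against EHMT1 or a scrambled siRNA. A LINC gene was included when it had at least 10 counts in at least 3 of 6 libraries, in the count column of the strand that holds most reads. This kept 337 of the 2271 LINC identifiers in the tables, among 61552 gene identifiers in all. They carried 336 symbols, because LINC01605 stands for 2 identifiers. Of the other LINC identifiers, 1240 had no count in any library and 694 had counts below the rule.

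RD is a human cell line of embryonal rhabdomyosarcoma, a muscle-lineage tumour, and the labels give its genotype as FN-RMS. Both groups were grown in RPMI with fetal bovine serum and were transfected with Lipofectamine RNAiMAX. RNA was collected after 48 h from 3 samples given EHMT1-specific siRNA and from 3 given scrambled siRNA, and the poly-A fraction was sequenced. Whether the 3 samples of a group were cultured apart is not stated, so each p-value rests on a spread between samples that may be only technical.

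EHMT1, also called GLP, forms a complex with EHMT2 (G9a) that places mono- and dimethyl marks on lysine 9 of histone H3, a mark found in silent chromatin. LINC symbols are given to RNA genes that mostly lie between protein-coding genes and have no better name, so the group is defined by naming and holds RNAs of unlike function. Many are spliced and polyadenylated like messenger RNAs, are present at low levels, and some have turned out to encode short peptides.

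The promoters of 5 genes are printed here so that the most changed genes can be compared with the abundant ones at the level of sequence. LINC02285 and LINC01522 had the largest fitted rises, LINC00963 was the most abundant LINC gene that rose, LINC01515 was the fallen gene whose call held with each library left out, and LINC02458 was the most abundant LINC gene of all. Each is RefSeq's window from 250 bases before to 50 bases after the annotated start, on GRCh38.p14, 5′ to 3′ on the strand of the gene, with CG dinucleotides in capitals. The windows are chr14:101120606-101120905 on the plus strand for LINC02285, chr20:47990068-47990367 on the minus strand for LINC01522, chr9:129488410-129488709 on the plus strand for LINC00963, chr10:65571175-65571474 on the plus strand for LINC01515 and chr12:89019643-89019942 on the minus strand for LINC02458.
LINC02285: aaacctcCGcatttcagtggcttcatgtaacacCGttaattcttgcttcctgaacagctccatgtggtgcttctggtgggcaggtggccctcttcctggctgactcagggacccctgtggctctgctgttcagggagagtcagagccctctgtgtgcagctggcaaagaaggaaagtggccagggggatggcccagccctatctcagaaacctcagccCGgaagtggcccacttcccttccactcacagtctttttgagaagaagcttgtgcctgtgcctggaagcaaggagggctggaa
LINC01522: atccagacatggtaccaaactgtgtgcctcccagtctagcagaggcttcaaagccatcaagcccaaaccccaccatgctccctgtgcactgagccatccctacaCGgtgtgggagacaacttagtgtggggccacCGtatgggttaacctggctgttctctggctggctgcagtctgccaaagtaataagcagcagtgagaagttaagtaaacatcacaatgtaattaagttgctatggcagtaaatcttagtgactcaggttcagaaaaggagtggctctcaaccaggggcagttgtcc
LINC00963: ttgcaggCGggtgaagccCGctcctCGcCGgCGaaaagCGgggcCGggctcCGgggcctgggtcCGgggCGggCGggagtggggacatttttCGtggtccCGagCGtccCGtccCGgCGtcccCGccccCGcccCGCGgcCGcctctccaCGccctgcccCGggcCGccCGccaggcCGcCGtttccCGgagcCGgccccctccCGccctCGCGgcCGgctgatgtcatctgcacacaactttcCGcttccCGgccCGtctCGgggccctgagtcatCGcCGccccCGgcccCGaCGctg
LINC01515: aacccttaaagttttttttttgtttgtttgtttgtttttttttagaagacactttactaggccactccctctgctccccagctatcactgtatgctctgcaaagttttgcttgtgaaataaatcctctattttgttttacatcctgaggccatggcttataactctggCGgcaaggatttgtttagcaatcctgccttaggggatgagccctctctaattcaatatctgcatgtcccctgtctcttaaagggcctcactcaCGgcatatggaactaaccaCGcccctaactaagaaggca
LINC02458: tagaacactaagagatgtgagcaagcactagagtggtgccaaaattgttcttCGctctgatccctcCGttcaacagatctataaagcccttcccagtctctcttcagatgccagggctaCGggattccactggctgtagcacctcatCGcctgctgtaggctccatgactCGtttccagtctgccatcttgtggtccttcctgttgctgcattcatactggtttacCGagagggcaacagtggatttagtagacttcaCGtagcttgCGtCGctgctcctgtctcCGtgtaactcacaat
The windows of LINC02285, LINC01522 and LINC01515 held 3, 2 and 3 CG dinucleotides. That of LINC02458 held 10 and that of LINC00963 held 43.

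The targeted transcript checked the labels. EHMT1 stood at 52.6, 52.5 and 56.4 CPM (counts scaled to the size of the library) in the EHMT1 siRNA libraries, against 128.7, 147.0 and 128.6 in the scrambled libraries, so 40.0% remained (log2 fold change -1.32 ± 0.06 SE, edgeR adjusted p = 2.66e-09). Gene counts in that column ranged from 40742278 to 42222775 in the EHMT1 siRNA libraries and from 40472383 to 47538633 in the scrambled libraries. Scrambled replicate 2 stood apart on the first principal component of the LINC genes, at -8.08 against -1.78 and -0.69 for the other scrambled libraries and 3.40 to 3.69 for the EHMT1 siRNA libraries. Markers of the muscle lineage were present: MYOD1 ranged from 122.0 to 149.5 CPM and MYOG from 37.0 to 50.4 CPM over the libraries, while MYF5 was at 0 counts in all 6. Markers of endothelium (VWF at most 0.494 CPM) and blood (PTPRC at most 0.172 CPM) were near 0. Of the epithelial markers, CDH1 and EPCAM reached at most 0.0741 and 0.442 CPM, while KRT18 (97.5 to 110.5 CPM) and KRT8 (11.7 to 14.6 CPM) were expressed. Of the fibroblast markers, COL1A1 was expressed (277.1 to 318.4 CPM), while DCN and PDGFRA reached at most 0.312 and 0.189 CPM. In a bulk sample, fewer cells that make an RNA and less of that RNA per cell cannot be told apart.

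LINC RNAs made up a small and uneven share of the RNA. Their counts were 0.148% to 0.149% of all gene counts in the EHMT1 siRNA libraries and 0.134% to 0.146% in the scrambled libraries. Of the 337 genes, 169 (50.1%) averaged under 1 CPM and 29 averaged 10 CPM or more. Per kilobase of exon, the median LINC gene stood at 0.514 CPM per kb and the median protein-coding gene at 5.43 CPM per kb. The median LINC gene had 2.46 kb of exon and 4 exons, against 5.10 kb and 11 exons for protein-coding genes. In GENCODE 29, 281 of the genes are typed lincRNA, 21 processed transcript and 19 antisense. Among the rest, 8 are typed transcribed unprocessed pseudogene and 1 protein-coding. Of the LINC genes whose nearest coding gene was tested, 12 overlap that gene on the opposite strand and 9 on the same strand.

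LINC02458 was the most abundant LINC RNA, with 121.9, 120.5 and 119.4 CPM in the EHMT1 siRNA libraries and 144.3, 133.5 and 138.0 CPM in the scrambled libraries. It alone supplied 8.97% of the summed LINC CPM, and the 8 most abundant genes supplied 33.9%. After it came LINC00839, with 89.5 to 95.1 CPM in the EHMT1 siRNA libraries and 91.1 to 92.7 CPM in the scrambled libraries. LINC00665, LINC00958, LINC00205, LINC00963, LINC00667 and LINC00662 followed, with means over all libraries of 61.1, 51.9, 43.2, 42.0, 38.6 and 30.8 CPM. LINC00839 did not differ between the groups beyond their spread (log2 fold change 0.0093, edgeR adjusted p = 0.939), and LINC00665, LINC00958, LINC00205 and LINC00662 also missed the threshold (edgeR adjusted p = 0.134, 0.227, 0.265 and 0.245). Per kilobase of exon, the 5 highest were LINC02458 (44.1 CPM per kb), LINC00839 (39.5), LINC02544 (27.7), LINC00958 (18.1) and LINC01518 (17.8). LINC02544 and LINC01518 rank there because their annotated exons span only 0.544 and 0.519 kb.

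With EHMT1 siRNA, 24 LINC genes rose and 4 fell at an edgeR adjusted p under 0.05, which is 7.12% and 1.19% of the 337. Among all 18927 genes tested the same rule called 5.63% as risen and 7.28% as fallen, 12.9% in all. The rises ranged from 1.17-fold (LINC00667) to 4.67-fold (LINC02285), and 7 were 2-fold or more, or 6 and up to 3.80-fold without LINC02285. The 3.80-fold rise was that of LINC01522, whose place in the set also rested on its EHMT1 siRNA libraries. The largest were in LINC02285, LINC01522, LINC00911, LINC02535, LINC01711, LINC01588 and LINC01358, and those with the smallest adjusted p were in LINC02709 and LINC01358. LINC01018, LINC01963, LINC01515 and LINC02458 fell, none of them by 2-fold. Leaving out any 1 of the EHMT1 siRNA libraries lowered the number of risen LINC genes to 11 and that of fallen ones to 2, 1 and 1 (without replicate 1, 2 and 3). Without scrambled replicate 2 the numbers were 33 and 8, and without scrambled replicate 3 they were 22 and 2.

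**Figure D1:**
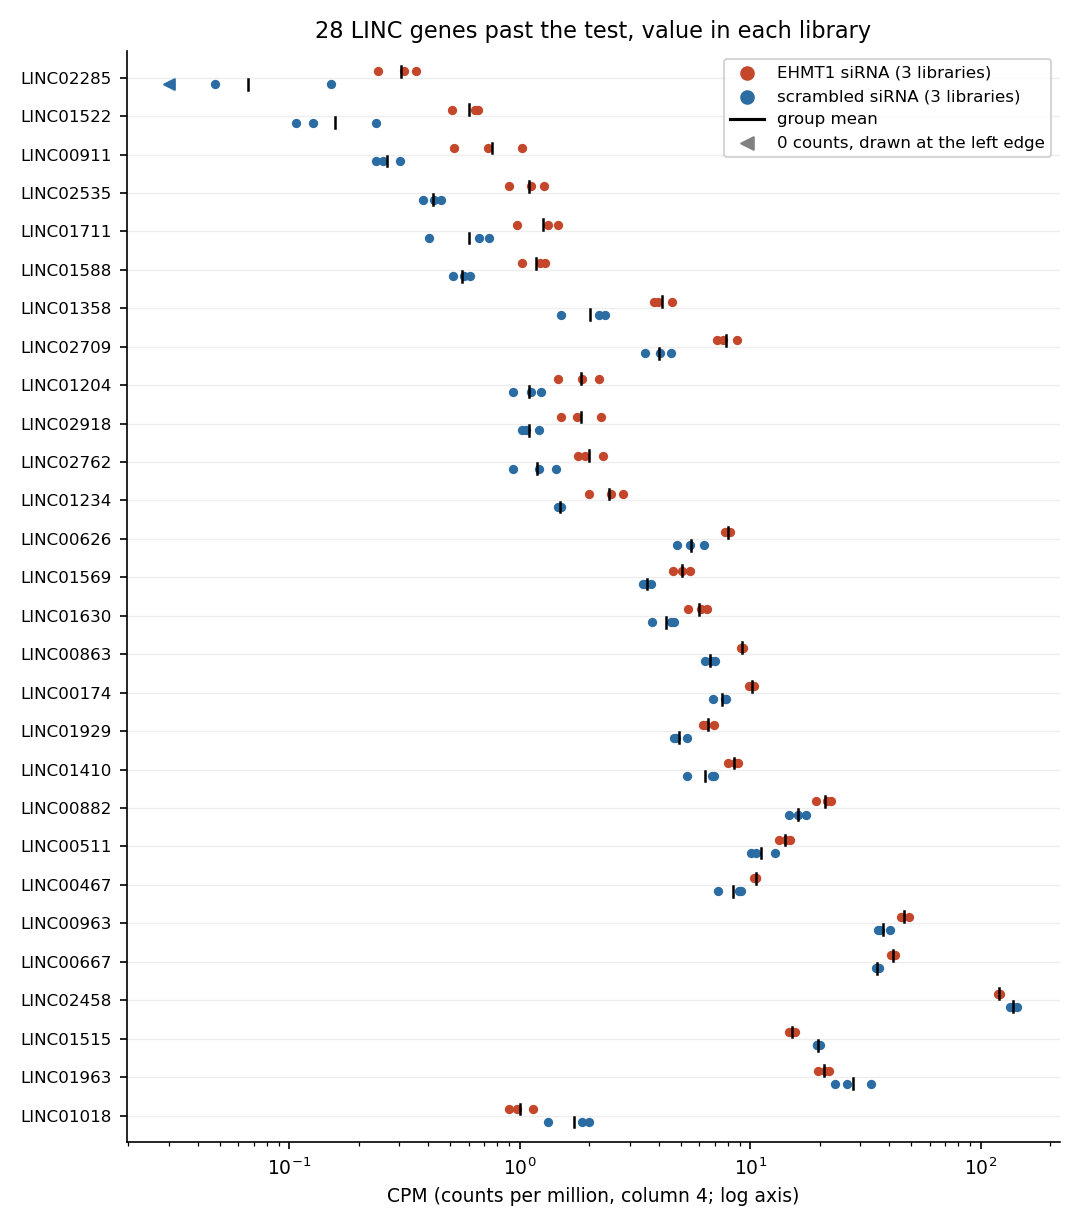
CPM of the 28 LINC genes past the test in each library (x axis, log scale), with EHMT1 siRNA (red) above scrambled siRNA (blue) in each row, black ticks for group means and a triangle for 0 counts. The 24 genes that rose are at the top in order of fold change and the 4 that fell are at the bottom; in every row the 3 EHMT1 siRNA points lie to 1 side of the 3 scrambled points.

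The largest rises were in RNAs close to the limit of counting. LINC02285 had 15, 13 and 10 counts in the EHMT1 siRNA libraries (0.354, 0.315 and 0.243 CPM) and 0, 6 and 2 counts in the scrambled libraries (0, 0.151 and 0.0477 CPM). Its groups did not overlap, with a log2 fold change of 2.22 ± 0.69 SE (edgeR adjusted p = 0.0425). It entered the set only through its EHMT1 siRNA libraries and therefore had to differ, and without it and LINC01703, which entered only through its scrambled libraries, 23 genes rose and 4 fell. Its call was also lost when any library other than scrambled replicate 2 was left out (edgeR adjusted p up to 0.136), and its fitted fold moved between 3.06 (without scrambled replicate 1) and 12.1 (without scrambled replicate 2). LINC01522 had 0.638, 0.509 and 0.657 CPM in the EHMT1 siRNA libraries, against 0.107, 0.126 and 0.238 CPM in the scrambled libraries. Every EHMT1 siRNA value was above any scrambled value (log2 fold change 1.93 ± 0.43 SE, edgeR adjusted p = 0.00669). Its call held with each library left out in turn. In scrambled replicates 1 and 2 it lay below the count minimum of 10, so its place in the set rested on its EHMT1 siRNA libraries. That selection favours a rise, and its call and fold carry this limit.

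LINC00911 and LINC02535 followed. LINC00911 had 0.520, 1.02 and 0.730 CPM in the EHMT1 siRNA libraries and 0.256, 0.303 and 0.238 CPM in the scrambled libraries, and replicate 2 was the highest of all (log2 fold change 1.50 ± 0.37 SE, edgeR adjusted p = 0.0130). Without EHMT1 siRNA replicate 2 or 3 its call was lost (edgeR adjusted p up to 0.110). LINC02535 had 1.28, 0.896 and 1.12 CPM in the EHMT1 siRNA libraries, against 0.426, 0.378 and 0.453 CPM in the scrambled libraries. The lowest EHMT1 siRNA value lay well above the highest scrambled one, and the log2 fold change of 1.38 ± 0.30 SE (edgeR adjusted p = 0.00508) was called with every library left out. LINC01711 (log2 fold change 1.07, edgeR adjusted p = 0.0203) and LINC01588 (1.07, edgeR adjusted p = 0.0132) averaged 1.26 and 1.18 CPM in the EHMT1 siRNA libraries and 0.601 and 0.563 CPM in the scrambled libraries. The call of LINC01711 was lost without EHMT1 siRNA replicate 1 or 2 or scrambled replicate 1, and that of LINC01588 without EHMT1 siRNA replicate 1 or 3.

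LINC01358 and LINC02709 combined a change near 2-fold with a level of several CPM, and had the smallest adjusted p of the LINC genes. LINC02709 stood at 7.21, 7.60 and 8.76 CPM in the EHMT1 siRNA libraries, against 4.54, 3.51 and 4.05 CPM in the scrambled libraries. The groups were far apart (log2 fold change 0.96 ± 0.13 SE, edgeR adjusted p = 0.000129). LINC01358 stood at 3.99, 3.83 and 4.57 CPM in the EHMT1 siRNA libraries and at 2.34, 1.51 and 2.22 CPM in the scrambled libraries. Here too no values overlapped (log2 fold change 1.02 ± 0.18 SE, edgeR adjusted p = 0.00103), and both calls held with each library left out.

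A further 4 genes rose by 1.62-fold to 1.68-fold at 1 to 3 CPM. LINC01204, LINC02918, LINC02762 and LINC01234 had log2 fold changes of 0.75, 0.74, 0.74 and 0.70 (edgeR adjusted p = 0.0367, 0.0354, 0.0323 and 0.0215). LINC01234, which has been studied in carcinomas and is reported to encode a micropeptide, had 2.48, 2.81 and 2.00 CPM in the EHMT1 siRNA libraries and 1.47, 1.51 and 1.50 CPM in the scrambled libraries. Its 3 scrambled values lay almost on top of each other, below all EHMT1 siRNA values. Each of these 4 calls was lost when some single library was left out, in 3 to 5 of the 6 cases (edgeR adjusted p up to 0.212 for LINC02918), and LINC02918 also missed the threshold under limma-voom (adjusted p = 0.0508).

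The remaining 12 risen genes changed by 1.17-fold to 1.44-fold and were among the better measured LINC RNAs, at 4.30 to 42.0 CPM on average. LINC00626 stood at 8.17, 8.02 and 7.74 CPM in the EHMT1 siRNA libraries, against 5.50, 4.79 and 6.31 CPM in the scrambled libraries. LINC00863 stood at 9.28, 9.18 and 9.10 CPM in the EHMT1 siRNA libraries, against 6.37, 7.01 and 6.74 CPM in the scrambled libraries. LINC00174 stood at 9.90, 10.3 and 10.3 CPM in the EHMT1 siRNA libraries, against 7.84, 6.89 and 7.79 CPM in the scrambled libraries. In all 3 genes the EHMT1 siRNA replicates were close together and above every scrambled replicate. Their log2 fold changes were 0.53 ± 0.12, 0.45 ± 0.10 and 0.44 ± 0.10 SE (edgeR adjusted p = 0.00678, 0.00561 and 0.00664), and all 3 calls held with each library left out. LINC00863 shares exons with NUTM2D and LINC00174 with 5 annotated genes or pseudogenes, so reads of the shared stretches may be lost from their counts or misassigned.

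LINC00963, LINC00667 and LINC00882 were the most abundant genes of this class. LINC00963, known as an RNA that promotes glycolysis in cancer cells, had 45.2, 45.3 and 48.7 CPM in the EHMT1 siRNA libraries, against 36.4, 36.0 and 40.6 CPM in the scrambled libraries. The 2 groups were separate (log2 fold change 0.30 ± 0.06 SE, edgeR adjusted p = 0.00529), and only without EHMT1 siRNA replicate 3 did the adjusted p pass 0.05, at 0.0518. LINC00882 had 19.3, 21.5 and 22.5 CPM in the EHMT1 siRNA libraries and 14.7, 16.1 and 17.4 CPM in the scrambled libraries (log2 fold change 0.39 ± 0.08 SE, edgeR adjusted p = 0.00548). Its groups were separate too, and without EHMT1 siRNA replicate 3 its adjusted p in edgeR was 0.0515. LINC00667, at 40.7, 41.5 and 42.5 CPM in the EHMT1 siRNA libraries and 36.1, 35.5 and 35.3 CPM in the scrambled libraries, had the smallest rise (log2 fold change 0.22 ± 0.06 SE, edgeR adjusted p = 0.0180), and lost its call when any EHMT1 siRNA library was left out.

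LINC01569, LINC01630, LINC01929, LINC01410, LINC00511 and LINC00467 completed the rises, with log2 fold changes of 0.51, 0.47, 0.42, 0.42, 0.34 and 0.32 (edgeR adjusted p = 0.0161, 0.0253, 0.0260, 0.0254, 0.0279 and 0.0495). LINC00511, a long gene with 57 annotated exons that is studied as a growth-promoting RNA in carcinomas, averaged 14.2 CPM in the EHMT1 siRNA libraries and 11.2 CPM in the scrambled libraries. LINC00467, which encodes a micropeptide of the mitochondrial ATP synthase, averaged 10.5 CPM in the EHMT1 siRNA libraries and 8.44 CPM in the scrambled libraries. All 6 lost their call when some single library was left out (edgeR adjusted p up to 0.165, for LINC00467), and LINC00467 also under limma-voom (adjusted p = 0.0536).

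Of the 4 LINC genes that fell, LINC01515 was the firmest. It stood at 15.6, 14.7 and 15.3 CPM in the EHMT1 siRNA libraries, against 19.5, 20.1 and 19.5 CPM in the scrambled libraries. Both groups were tight and well apart (log2 fold change -0.37 ± 0.07 SE, edgeR adjusted p = 0.00288), and the call held with each library left out. LINC01963, an RNA also known as a source of the protein kinase C inhibitor PKI55, stood at 22.0, 21.1 and 19.6 CPM in the EHMT1 siRNA libraries and at 26.4, 23.4 and 33.6 CPM in the scrambled libraries. Its scrambled replicate 3 was the highest by far (log2 fold change -0.41 ± 0.10 SE, edgeR adjusted p = 0.0152). Without that library the change was -0.25 (edgeR adjusted p = 0.0681), and the call was also lost without EHMT1 siRNA replicate 2 or 3. LINC02458, whose values are given above, fell by 0.20 on the log2 scale (SE 0.05, edgeR adjusted p = 0.0179), so that 87.0% of its level remained. It was no longer called when any EHMT1 siRNA library or scrambled replicate 1 was left out (edgeR adjusted p up to 0.109).

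LINC01018, studied in liver cancer, had 0.969, 1.14 and 0.900 CPM in the EHMT1 siRNA libraries, against 1.32, 1.99 and 1.86 CPM in the scrambled libraries. The groups did not overlap (log2 fold change -0.78 ± 0.23 SE, edgeR adjusted p = 0.0358), but the locus was read mainly from the other strand. It had 4639 counts in the opposite-strand column and 344 in the column used here, so 93.1% lay on the opposite strand. For comparison, the median protein-coding gene had 6.78% of its counts in the column opposite to its own strand. The part of misplaced opposite-strand reads in the counts of LINC01018 and in its fall was not tested. Its call was lost in 5 of the 6 fits without 1 library, all except that without scrambled replicate 1, and under limma-voom (adjusted p = 0.0569).

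The strand of the reads matters for RNAs this scarce. The column used here held 87.1% to 89.0% of the strand counts of a library, and the median protein-coding gene had 6.78% of its counts on the opposite strand. The median LINC gene had 5.88%, 250 of the 337 had under 10%, and 22 had more than 50%. LINC01018 was the 1 called gene among those 22, and without the 22 the LINC genes called were 24 risen and 3 fallen. When the unstranded column was tested instead, 25 of the 28 calls were made again with the same sign, where 5.65% of all genes tested in that column rose and 6.54% fell. LINC01410 missed the threshold there (log2 fold change 0.35, edgeR adjusted p = 0.0583), and LINC01018 and LINC02285 had too few unstranded counts to be tested. In the unstranded column only, 4 LINC genes were called. LINC01036 was a member (log2 fold change -0.31, edgeR adjusted p = 0.0485, against -0.20 and 0.396 in the strand column), and LINC01353 (1.86, 0.0420), LINC01563 (1.73, 0.0420) and LINC00216 (-1.82, 0.0336) did not reach the count minimum in the strand column. LINC00216 overlaps PSMA3-AS1 on the other strand and had 136 opposite-strand counts against 3.

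**Figure D2:**
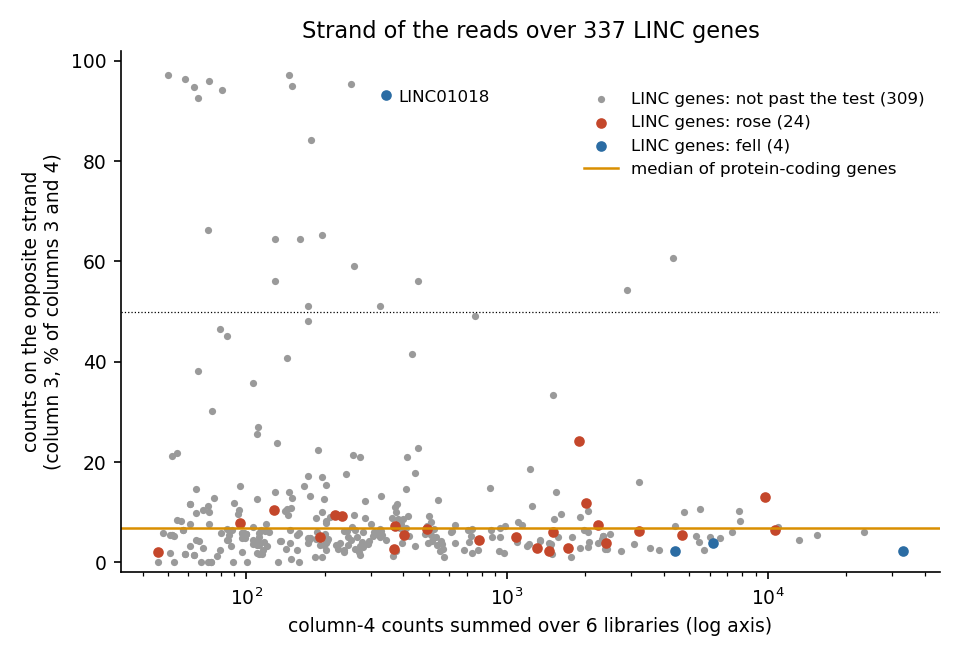
Share of strand counts on the opposite strand (y axis, %) against the counts in the strand column used here, summed over 6 libraries (x axis, log scale), for the 337 LINC genes. The orange line is the median of protein-coding genes, 6.78%, and the dotted line is 50%; LINC01018, at 93.1%, is the 1 called gene above the dotted line.

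As a set, LINC genes leaned upward, including those that were not called. The median log2 fold change was 0.16 over the 337 LINC genes, -0.0048 over all genes tested and -0.0082 over protein-coding genes. A positive value was found for 69.7% of LINC genes, 49.1% of all genes and 48.2% of protein-coding genes. Every EHMT1 siRNA library lay above every scrambled library in 68 LINC genes (20.2%, against 14.8% of all genes tested), and below in 18 (5.34%, against 16.2%). Among protein-coding genes these shares were 16.7% and 19.7%. Of the 68 and 18 LINC genes, 44 and 14 were not called. No test was made of the difference between LINC genes and other genes.

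Part of that lean was shared by other genes of low level. Protein-coding genes weighted to the levels of the LINC genes, in bins 1 log2 unit wide, had a median log2 fold change of 0.050, with 55.9% above 0. Of them, 5.73% rose and 2.89% fell, against 7.12% and 1.19% of the LINC genes. Separate groups were found above in 16.0% and below in 9.66% of these weighted genes. For the LINC genes the same shares were 20.2% and 5.34%. In LINC genes under 1 CPM the median was 0.24, with 6 of 169 risen and 0 fallen. From 1 to 10 CPM the median was 0.13, with 14 of 139 risen and 1 fallen. From 10 CPM up it was 0.11, with 4 of 29 risen and 3 fallen. In the bins from -3 to 0 log2 CPM, 3.97% to 10.3% of protein-coding genes rose and at most 0.993% fell. In those from 0 to 3, 5.97% to 7.94% rose and 1.73% to 6.28% fell. In those from 3 to 8, 6.30% to 8.07% rose and 8.85% to 15.4% fell. Protein-coding genes under 1 CPM had a median of 0.091, and all other genes under 1 CPM one of 0.015.

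**Figure D3:**
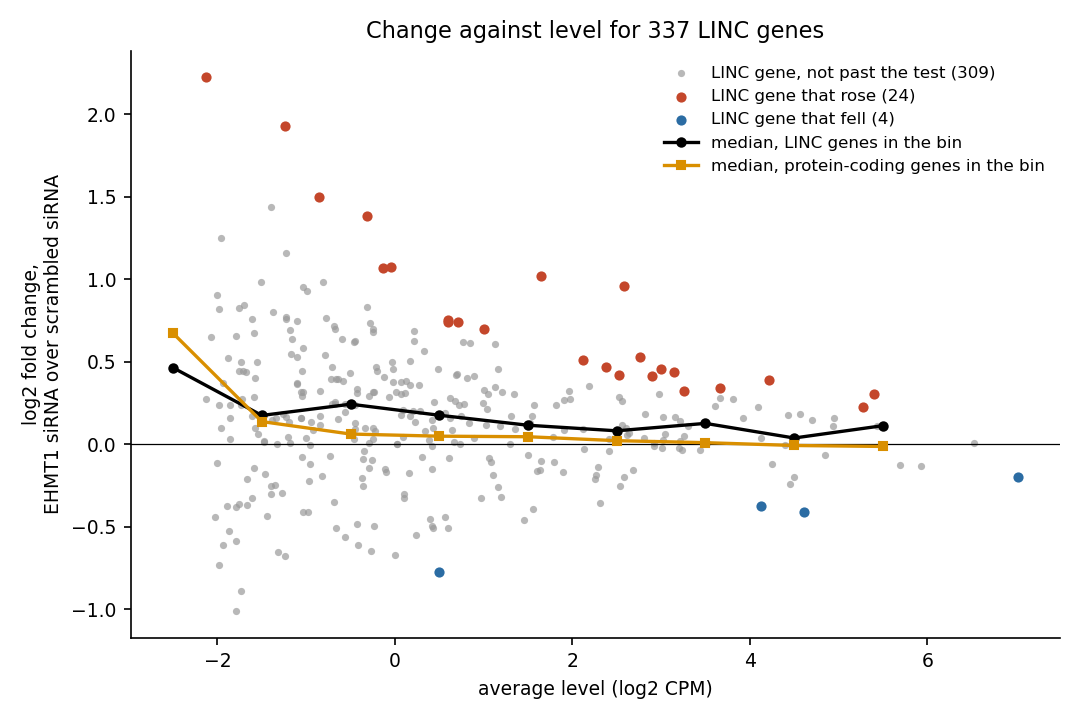
Log2 fold change of EHMT1 siRNA over scrambled siRNA (y axis) against average level (x axis, log2 CPM) for the 337 LINC genes, with genes that rose in red, genes that fell in blue and the rest in grey. Lines join medians in bins 1 log2 unit wide that hold at least 5 LINC genes, black for LINC and orange for protein-coding genes; the largest fold changes sit at the lowest levels, where single values also spread most.

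The spread over the LINC genes and the number of LINC identifiers detected differed between the groups as well. Over the LINC genes, the median coefficient of variation was 14.3% among EHMT1 siRNA libraries and 19.9% among scrambled libraries. A count was found for 716, 723 and 719 LINC identifiers in the EHMT1 siRNA libraries, against 661, 617 and 686 in the scrambled libraries. Over all genes these numbers were 27749, 28048 and 27952 in the EHMT1 siRNA libraries and 26792, 26147 and 27801 in the scrambled libraries, so there the groups overlapped. At least 10 counts were found for 341, 332 and 332 LINC identifiers with EHMT1 siRNA. With scrambled siRNA these were 326, 304 and 331, fewest in replicate 2. So in all 3 scrambled libraries fewer LINC identifiers had a count, also in replicate 1, which had the most counts. The summed level of the 337 genes was 1474, 1475 and 1472 CPM in the EHMT1 siRNA libraries, against 1424, 1369 and 1452 CPM in the scrambled libraries, lowest in scrambled replicate 2. Without that library the median log2 fold change of the LINC genes was 0.13. The part of detection in the upward lean was not tested.

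Other classes of non-coding RNA give a frame for these counts. Of 738 genes that GENCODE types as lincRNA but that are not named LINC, 2.57% rose and 1.63% fell, with a median log2 fold change of 0.065. Of 1780 antisense genes not named LINC, 1.18% rose and 0.955% fell, with a median of 0.019. Of 182 processed transcripts not named LINC, 6.04% rose and 1.65% fell. Levels differ between these classes and were not matched. Among the LINC genes, the 244 without exon overlap with another gene of GENCODE 29 held 18 of the rises and all 4 falls. The 92 with such overlap held 6 rises. These were LINC01588, LINC01358, LINC00863, LINC00174, LINC00511 and LINC00667, whose counts the overlap may alter through reads lost or misassigned. GENCODE 29 holds 58352 of the 61552 identifiers, so overlap with the other identifiers was not read. LINC01018 and LINC02285, classed as without overlap, had 38 and 20 unstranded counts against 344 and 46 in the strand column. Overlap in the annotation used for counting therefore remains possible for them.

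**Figure D4:**
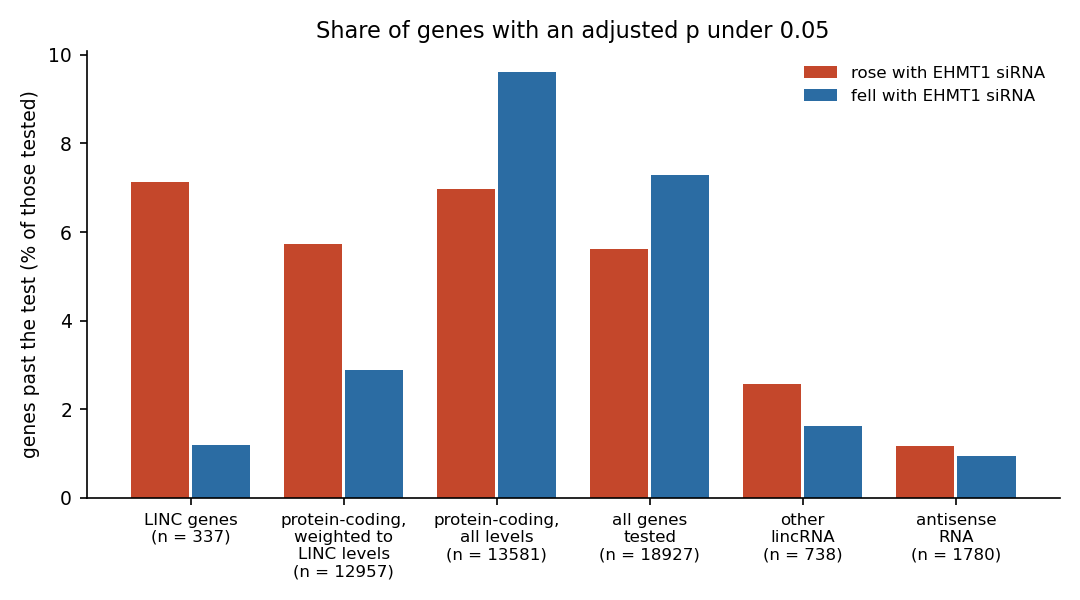
Share of genes past the edgeR test at an adjusted p under 0.05 (y axis, % of genes tested), risen in red and fallen in blue, for LINC genes, for protein-coding genes weighted to the LINC levels, for all protein-coding genes, for all genes tested and for other non-coding classes of GENCODE 29. LINC genes show 7.12% risen and 1.19% fallen, and the level-weighted protein-coding genes 5.73% and 2.89%.

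The nearest protein-coding gene was read for each LINC gene, although it often lay far away. Of the 337 LINC genes, 270 had a nearest coding gene (GENCODE 29) that was tested, and 137 of these pairs (50.7%) moved with the same sign. In 243 of the 270 pairs the starts lay more than 5 kb apart. Across all 270 pairs, which share libraries and are not independent, Pearson's r was 0.16 and Spearman's rho was 0.16. Across the 243 pairs with starts more than 5 kb apart, these were 0.13 and 0.15. Of the neighbours, 21 rose and 33 fell, where 6.97% and 9.61% of all protein-coding genes did. For the 18 risen LINC genes with a tested neighbour, 4 neighbours rose, 3 fell and the others were not called. None of the neighbours of the 4 fallen genes (NSUN2, XRCC5, CTNNA3 and DUSP6) was called. Their starts lay 51.2, 110, 2126 and 334 kb from those of the LINC genes.

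The clearest neighbour was NT5E, which encodes the ecto-5′-nucleotidase CD73 and whose start lies 59.4 kb from that of LINC02535. NT5E stood at 273.4, 262.3 and 263.5 CPM in the EHMT1 siRNA libraries, against 208.8, 181.4 and 175.6 CPM in the scrambled libraries. No values overlapped (log2 fold change 0.50 ± 0.06 SE, edgeR adjusted p = 6.96e-05), beside 1.38 for LINC02535. FLRT2, a leucine-rich repeat membrane protein whose start lies 136 kb from that of LINC00911, rose by a log2 fold change of 0.30 (edgeR adjusted p = 0.00375). IPO13, an importin, rose by 0.25 (edgeR adjusted p = 0.00584), and its start lies 0.388 kb from that of LINC02918 in divergent orientation. MEX3C, an RNA-binding ubiquitin ligase whose start lies 128 kb from that of LINC01630, rose by 0.22 (edgeR adjusted p = 0.0333). The calls of NT5E and FLRT2 held with each library left out, while that of IPO13 was lost without EHMT1 siRNA replicate 3 (edgeR adjusted p = 0.0510) and that of MEX3C when any EHMT1 siRNA library was left out.

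Elsewhere the neighbour moved the opposite way. SULF2, a heparan sulfate 6-O-endosulfatase, is the nearest coding gene of LINC01522, with starts 202 kb apart. It stood at 36.0, 35.4 and 34.9 CPM in the EHMT1 siRNA libraries, against 42.4, 49.2 and 42.3 CPM in the scrambled libraries. All 3 EHMT1 siRNA values lay below the scrambled ones (log2 fold change -0.33 ± 0.07 SE, edgeR adjusted p = 0.00358), while LINC01522 rose 3.80-fold. RBM19, a ribosome biogenesis protein whose start lies 193 kb from that of LINC01234, fell by 0.24 on the log2 scale (edgeR adjusted p = 0.0309). TCF4, an E protein that pairs with bHLH factors such as MYOD1, fell by 0.21 (edgeR adjusted p = 0.0210), and its start lies 540 kb from that of LINC01929. The calls of RBM19 and TCF4 were lost when any EHMT1 siRNA library was left out, and also without scrambled replicate 2 for RBM19 and without scrambled replicate 1 for TCF4 (edgeR adjusted p up to 0.139).

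**Figure D5:**
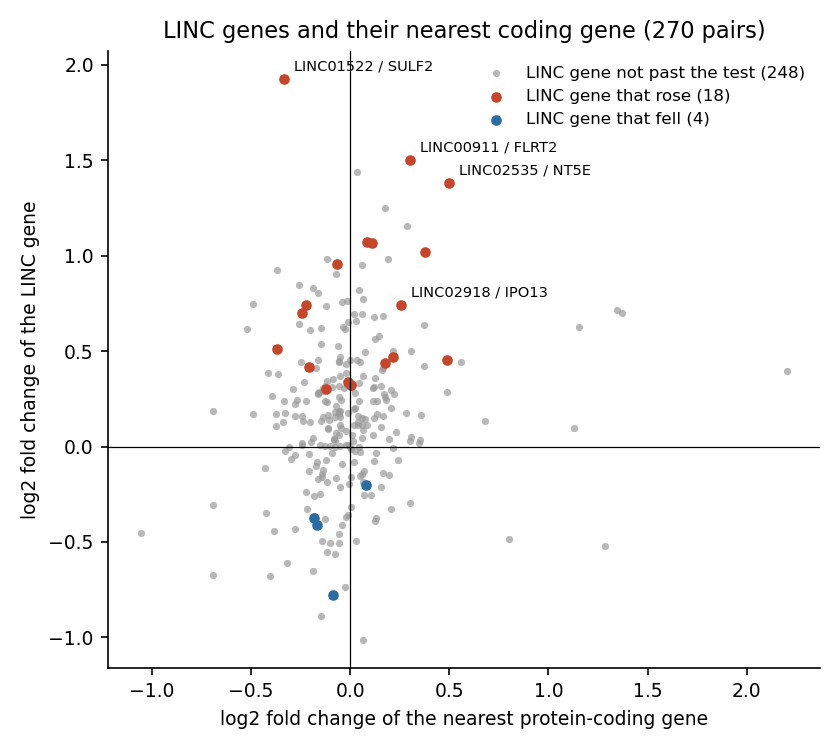
Log2 fold change of each LINC gene (y axis) against that of its nearest protein-coding gene (x axis), EHMT1 siRNA over scrambled siRNA, for 270 pairs; risen LINC genes are red, fallen ones blue and the rest grey. Points fill all 4 quadrants, with LINC02535 / NT5E and LINC00911 / FLRT2 high in both and LINC01522 / SULF2 split in direction.

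The risen genes were also split by the CG content of their promoters, a split chosen after their values were seen. A RefSeq promoter window was found for 231 LINC genes, with 263 windows since some genes have several starts. The median window held 9 CG dinucleotides for LINC genes, 25 for tested protein-coding genes and 14 over all windows in the table. Of the 15 risen genes with a single window, 9 held 1 to 8 CG, among them LINC02285, LINC01522, LINC01358 and LINC02709. Without LINC02285, which had to differ, the log2 fold changes of the other 8 ranged from 0.42 to 1.93. The 1.93 was that of LINC01522, whose place in the set rested on its EHMT1 siRNA libraries. The remaining 6, LINC01569, LINC00863, LINC00882, LINC00511, LINC00963 and LINC00667, held 21 to 43 CG and had log2 fold changes of 0.22 to 0.51. These classes also differed in level, with medians of 4.11 CPM (without LINC02285) and 15.6 CPM, so CG content and level cannot be told apart here. Over all LINC genes with a window, those under 10 CG had a median log2 fold change of 0.24, with 11 of 115 risen and 1 fallen. Those with 10 or more had 0.11, with 6 of 116 risen and 2 fallen. The 11 include LINC02285, which had to differ, and LINC01522, so their number is favoured in part by the count rule. Among protein-coding genes under 10 CG, 14.8% rose and 4.17% fell, and among those with 10 or more, 6.05% rose and 10.4% fell, so the share of rises was larger at low CG in protein-coding genes too.

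The E-box CAGCTG, which reads the same on both strands and is bound by myogenic bHLH factors, was present in 7 of 19 windows of risen LINC genes (36.8%), 0 of 4 of fallen ones and 65 of 240 of LINC genes not called (27.1%). One of the 7 is the window of LINC02285, which had to differ, so the share among risen genes carries this limit. The E-box was in 17.7% of protein-coding windows and 17.9% of all windows of that length in the table. A match to these letters is a description of the window only.

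Some LINC genes have a record in cancer cells. Of 43 such names, 25 were among the 337 genes. Of these, 4 rose and 0 fell, where 7.12% of all the LINC genes rose. The median log2 fold change was 0.11 over the 27 names that were tested. Those include PRECSIT and ATP13A3-DT, which no longer carry a LINC symbol and are not among the 337. The 4 were LINC01234, LINC00511, LINC00467 and LINC00963, described above. Values for the abundant LINC00665, LINC00662, LINC00839 and LINC00958 are given above as well, and of the others LINC00342 came nearest to the threshold (log2 fold change -0.24, edgeR adjusted p = 0.0787). Of 13 LINC names linked to muscle, heart or neural development, 2 passed the count rule: LINC00882 rose, and LINC01551 had a log2 fold change of 0.10 (edgeR adjusted p = 0.876).

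Widely studied non-coding RNAs outside the LINC names were read from a list. Of 68 symbols, which include the muscle micropeptide genes MYMX and MRLN, 53 were tested, 5 rose and 5 fell, where 5.63% and 7.28% of all genes tested did, and the median log2 fold change was -0.015. GAS5, a snoRNA host gene that accumulates when growth stops, had 297.2, 275.2 and 276.6 CPM in the EHMT1 siRNA libraries and 252.6, 204.3 and 249.1 CPM in the scrambled libraries (log2 fold change 0.27, edgeR adjusted p = 0.0187). OIP5-AS1 (0.25, edgeR adjusted p = 0.0182), MIAT (0.42, edgeR adjusted p = 0.0352), MIR100HG (0.18, edgeR adjusted p = 0.0498) and PCAT6 (1.69, edgeR adjusted p = 0.0188) also rose. NEAT1, the scaffold of nuclear paraspeckles, had 63.2, 65.4 and 64.2 CPM in the EHMT1 siRNA libraries and 77.1, 69.2 and 73.5 CPM in the scrambled libraries (log2 fold change -0.19, edgeR adjusted p = 0.0372). MIR17HG, the host of the miR-17-92 cluster (-0.50, edgeR adjusted p = 0.0186), MIR99AHG (-0.32, edgeR adjusted p = 0.0468), DLEU2 (-0.36, edgeR adjusted p = 0.0393) and THRIL (-1.13, edgeR adjusted p = 0.0493) also fell. Each of these 10 calls was lost when some single library was left out, with edgeR adjusted p up to 0.283 for MIR100HG. In the unstranded column NEAT1 and DLEU2 were not called (edgeR adjusted p = 0.0534 and 0.238), and under limma-voom MIR99AHG, THRIL, DLEU2 and MIR100HG were not (adjusted p = 0.0547, 0.124, 0.0501 and 0.0558). MIR99AHG also missed the threshold in DESeq2 (adjusted p = 0.0512). Other size factors or filters ended the calls of MIR99AHG, THRIL, NEAT1 and MIR100HG in at least 1 setting each.

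The count rule has an edge at which membership rests on single reads. Of the included genes, 20 had a third-highest count of exactly 10, and 16 LINC identifiers were left out at 9. Just inside, LINC01776 had 10, 5 and 10 counts in the EHMT1 siRNA libraries and 5, 13 and 3 in the scrambled libraries, and LINC00598 had 14, 4 and 11 against 10, 4 and 5. LINC02285, described above, also sat there. Just outside, LINC02725 had 8, 20 and 18 counts in the EHMT1 siRNA libraries and 9, 2 and 8 in the scrambled libraries, LINC02605 had 5, 9 and 7 against 17, 4 and 20, and LINC00921 had 15, 9 and 6 against 8, 7 and 16. Away from this edge, 257 of the 337 genes had at least 10 counts in all 6 libraries.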

How the data were processed

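Poly-A RNA of RD cells was sequenced 48 h after transfection, 3 libraries per group. The authors deposited unnormalized read counts for each gene, in the layout of STAR's gene count table: column 2 unstranded, columns 3 and 4 for the 2 strands. The submitters' processing notes name STAR 2.5, HTSeq 0.6.1, CASAVA, bcl2fastq, DESeq2 and hg19. The identifiers go beyond that build, so GENCODE 29 and RefSeq (GRCh38) served for names, types, exon lengths, neighbours and promoters only. Column 4 was the main one and column 2 the check. Rows that name no gene (19.5% to 21.7% of reads in column 4) stayed out.

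Genes with at least 10 counts in at least 3 libraries were tested together in R 4.3.3 with edgeR 4.0.16 (TMM, robust quasi-likelihood F test on group, Benjamini-Hochberg adjustment over 18927 genes, threshold 0.05). CPM were computed from column 4 with TMM library sizes. Those of the cell type markers, and the level of 3 counts given next, used unadjusted library sizes. At 0 counts a level of up to 0.0631 to 0.0741 CPM, that of 3 counts, remains possible; this covers counting error only. Pairs of libraries of a group differed by more than sampling noise (chi-square per degree of freedom 2.73 to 3.40 with EHMT1 siRNA and 7.71 to 17.9 with scrambled siRNA). Each library was treated as 1 sample, although this excess may still be only technical. The genes named are EHMT1, all called LINC genes, the most abundant ones, those at the count limit or called in 1 column only, list members and neighbours; the members and lists were chosen with earlier results of these data known. Alternatives were other size factors, filters, columns, DESeq2 1.42.0, limma-voom (limma 3.58.1), a replicate block, a stricter threshold, other LINC sets and each library left out. The SOX8 siRNA experiment of the series was not analysed here.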

Additional observations from a re-analysis of the deposited data

How the results depend on the processing

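At an adjusted p under 0.01, 9 LINC genes rose and 1 fell (edgeR), against 497 and 633 of all genes. Leaving out 1 library at a time gave 11 to 33 risen and 1 to 8 fallen LINC genes, against 480 to 1566 and 560 to 1868 of all genes, where all libraries gave 1065 and 1377. With no filter on low counts the median log2 fold change over every LINC gene with a count was 0.25. That setting tested 1031 LINC genes, of which 30 rose and 5 fell, and called 1213 and 1412 of all genes. Other size factors, filters, tests and the unstranded column gave 22 to 26 risen and 3 to 5 fallen LINC genes, against 1037 to 1187 and 1181 to 1429 of all genes, and the LINC genes without exon overlap gave 18 and 4. With the replicate number as a block, 31 LINC genes rose and 5 fell, against 1415 and 1728 of all genes. Samples with the same number correlated at 0.09, 0.07 and 0.05, each best with its own number. The labels state no pairing, and the main test used none. The sign of LINC genes near 0 depended on the choice: in the unstranded column LINC01138 had 0.016, LINC01535 -0.099 and LINC01551 -0.054. Leaving out single libraries moved the log2 fold change between -0.068 and 0.28 for LINC00324, -0.098 and 0.17 for LINC00472, -0.049 and 0.18 for LINC00641, -0.0098 and 0.033 for LINC00839, -0.024 and 0.074 for LINC01518, -0.39 and 0.38 for LINC01535, and -0.076 and 1.14 for LINC01776; the cause was not tested. The median SE was 0.27 for LINC genes and 0.074 for protein-coding genes on the log2 scale, with 3 libraries per group.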
